A study of Homo sapiens with 9 samples.

Results

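The data are the CTCF binding sites of the human uterine adenocarcinoma line HEC-1-B and of a derived line, CTCF-AID, that had received no auxin. The sites were mapped by ChIP-nexus, a chromatin immunoprecipitation in which exonucleases trim the recovered DNA up to the bound protein. All peaks of both CTCF lists on chromosomes 1 to 22 and X were taken, 52982 from wild type and 30374 from CTCF-AID, together 83356 of the 354101 peaks in the 9 lists of the study. The wild-type cells were labelled as wild type in genotype, with no treatment given. In the CTCF-AID genotype, CTCF carries an auxin-inducible degron and the auxin IAA is used to degrade proteins so tagged in cells that express TIR1. The library used here was labelled as 0 h of IAA and is called the 0 h library. Whether this line is 1 clone is not given in the sources used here. Both libraries used the same CTCF antibody, and the other lists served as further readouts at the same sites. They were RAD21 and ZNF143 in wild type, and CTCF and RAD21 in ZNF143 knockout cells (ZNF143KO). From the same CTCF-AID line came ZNF143 at 0 h, and CTCF and ZNF143 after 24 h of IAA at 500 µM. With 1 library in each group, differences are given without a replicate check and without p-values, and genotype, culture and library cannot be told apart. The intervals given are exact (Clopper-Pearson) 95% intervals that cover counting over peaks and no difference between cultures.

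CTCF is a zinc-finger protein that binds a long asymmetric DNA motif and marks the borders of many chromatin loops. Cohesin, of which RAD21 is a subunit, is thought to extrude DNA into loops and to be halted where it meets bound CTCF, so that both proteins are often found at the same site. ZNF143 is another zinc-finger protein, known for binding gene promoters and often seen near CTCF. Degron tagging is meant to leave the protein in place until auxin is added, and the untreated tagged line is the usual reference for the auxin experiment.

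Nearly all CTCF sites of the untreated CTCF-AID line were sites of wild-type cells, but many wild-type sites were missing from it. A site counted as found when the peaks of both lists shared 1 bp or more. Of the 0 h peaks, 29044 or 95.6% (95.4 to 95.8) were found in wild type, and 1330 or 4.38% (4.15 to 4.61) were absent from it. In the other direction, 29216 wild-type peaks or 55.1% (54.7 to 55.6) were found at 0 h, and 23766 or 44.9% (44.4 to 45.3) were missing. List length bounds this share: 28866 of the 0 h peaks overlapped 1 wild-type peak and 178 overlapped 2 or more. A list of 30374 peaks so joined could meet only part of the 52982 wild-type peaks. With both lists held to their 30374 strongest peaks, 82.9% of wild-type peaks were found at 0 h and 82.7% of 0 h peaks in wild type. Few sites lay at the edge of the rule: 14 found peaks overlapped a 0 h peak by at most 10 bp (median fold enrichment 8.79), and 11 missing peaks had the edge of a 0 h peak within 10 bp (median 7.21).

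The lists differed in background and in their shortest peak, and these values move with every comparison below. Solved from the deposited fold enrichment and −log10 p, the most frequent background at a summit was 0.233 reads in wild type and 0.561 at 0 h. The shortest peak was 27 bp in wild type and 44 bp at 0 h. If that length is taken as the footprint of a read, which the sources used here do not give, the background comes to 8.63 and 12.8 reads per kb, a ratio of 1.48. The lowest −log10 q was 3.0 in both lists. In each list the most frequent background was also the lowest at any summit. The shorter 0 h list thus came with the higher value, which does not tell read depth from noise. The part of depth and read footprint in the missing sites was not tested.

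Missing sites were the weaker sites of the wild-type list. Fold enrichment at the summit, the authors' signal value, had a median of 20.1 (quartiles 15.6 and 23.7) at wild-type sites found at 0 h and of 8.92 (7.13 and 11.9) at missing sites. At the common list length of 30374 peaks these medians were 21.1 and 15.3. In reads, the summit held a median of 31 at found sites and 11 at missing ones. Summit counts went no higher than 54 in wild type, reached by 135 peaks, and 88 at 0 h, reached by 134. What set these highest counts, and their part in the order of the strongest peaks, was not tested. When the wild-type peaks were ranked by fold enrichment and split into 10 groups of equal size, the share found went from 9.93% (9.14 to 10.8) in group 2 to 47.8% (46.5 to 49.2) in group 5, 83.6% (82.6 to 84.6) in group 7 and 98.9% (98.6 to 99.2) in group 10. The weakest group stood out of this order, with 11.2% (10.4 to 12.1) found. Its found peaks lay on a median background of 4.09 reads at the summit and its missing peaks on 0.265, so that a low ratio there went with high background. Ranked by −log10 q instead, the weakest group came to 6.02% (5.39 to 6.69) and the order held through all 10 groups, as the plot of share found by strength shows.

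**Figure D1:**
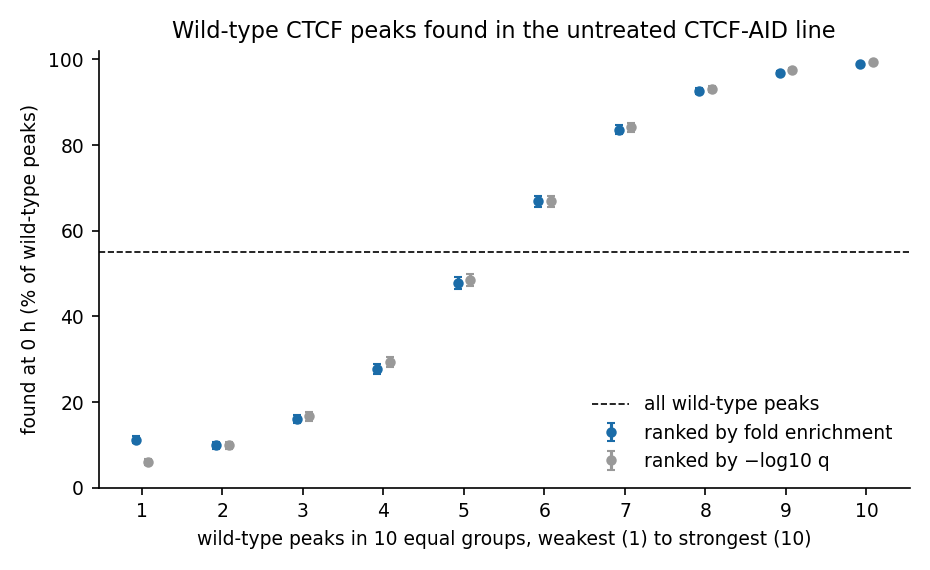
Share of wild-type CTCF peaks found at 0 h (vertical axis, %) in 10 groups of equal size from the weakest to the strongest wild-type peaks (horizontal axis), ranked by fold enrichment (blue) or −log10 q (grey). Bars are exact 95% intervals and the dashed line is the share over all wild-type peaks, 55.1%. Groups 1 to 5 lie under the line and groups 6 to 10 above it.

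Among found sites, the order of strength carried over in part. Over 28828 sites where 1 wild-type peak met 1 peak at 0 h, fold enrichment in the lists had a Spearman rho of 0.70 and a Pearson r of 0.70, a description across sites that share 1 library on each axis. Found sites of the weakest wild-type group ranked low at 0 h, with a median of 1.36% of the 0 h list weaker than them. The median came to 26.9% for group 5 and to 84.3% (quartiles 69.4 and 93.3) for group 10. The strongest wild-type sites were therefore also high in the 0 h list, with a spread of ranks inside each group.

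The 3 wild-type peaks of highest fold enrichment found at 0 h show this spread. The first, at chr14:107183266-107183373 (hg19, as are all positions here), had a fold enrichment of 33.8 in wild type. At 0 h its value was 25.7, higher than 93.0% of that list, with summits 5 bp apart. The site at chr4:190833478-190833597 had 33.6 in wild type and 26.0 at 0 h, higher than 94.1% of the 0 h list. Lower in rank was the site at chr22:35420148-35420305, which had 33.5 in wild type and 21.5 at 0 h, higher than 74.6% of the 0 h list, and its peak measured 158 bp in wild type and 239 bp at 0 h. All of these sites had peaks in both RAD21 lists, in the knockout CTCF list, in both ZNF143 lists made without auxin and in the 24 h CTCF list.

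Some strong wild-type sites were missing at 0 h. In groups 8 to 10, 622 of 15894 peaks were missing, where 44.9% of all wild-type peaks were. The missing strong peaks were scattered: counted along each chromosome among the peaks of these groups, 572 stood alone and 25 pairs were next to each other, with no longer run. The strongest missing peak, at chr17:44953940-44954052, had a fold enrichment of 30.6, higher than 99.9% of the wild-type list. Its RAD21 peak in wild type had 20.4, its ZNF143 peak in wild type 12.8 and its CTCF peak in the knockout 23.4. The nearest 0 h summit was 33569 bp away. At chr6:11241984-11242192 the wild-type CTCF value was 30.4, with 23.7 for RAD21, 18.96 for ZNF143 and 22.8 for CTCF in the knockout. This site kept a ZNF143 peak at 0 h, of fold enrichment 6.95, while the nearest CTCF summit at 0 h lay 69204 bp away. The next, chr17:78098234-78098351, had 28.4 for CTCF in wild type and 23.8 in the knockout, and no peak in any of the 4 CTCF-AID lists. These sites are also the 3 strongest missing peaks with both RAD21 and ZNF143 in wild type.

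Missing sites were narrow within the wild-type list, and shared sites were wider at 0 h. The median wild-type width was 117 bp (quartiles 94 and 140) at found sites and 57 bp (39 and 78) at missing ones, and at the common list length the medians were 123 and 88 bp. Width follows strength, but in each of the 10 groups found peaks had the higher median width, from 52 against 37 bp in group 1 to 91 against 77 bp in group 5 and 142 against 120 bp in group 10. At 29200 shared sites the width at 0 h was a median 1.46 times that in wild type (quartiles 1.09 and 1.84), with medians of 175 and 117 bp. The 0 h peak was the wider at 80.1% of these sites and the narrower at 19.4%, and it reached past both edges of the wild-type peak at 66.5%. Its median extension was 24 bp on the left and 25 bp on the right. The ratio was lowest in group 5, at 1.24, and highest in group 10, at 1.58. The shortest peaks of 27 and 44 bp differ in the same direction, and the part of read footprint in the wider 0 h peaks was not tested.

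**Figure D2:**
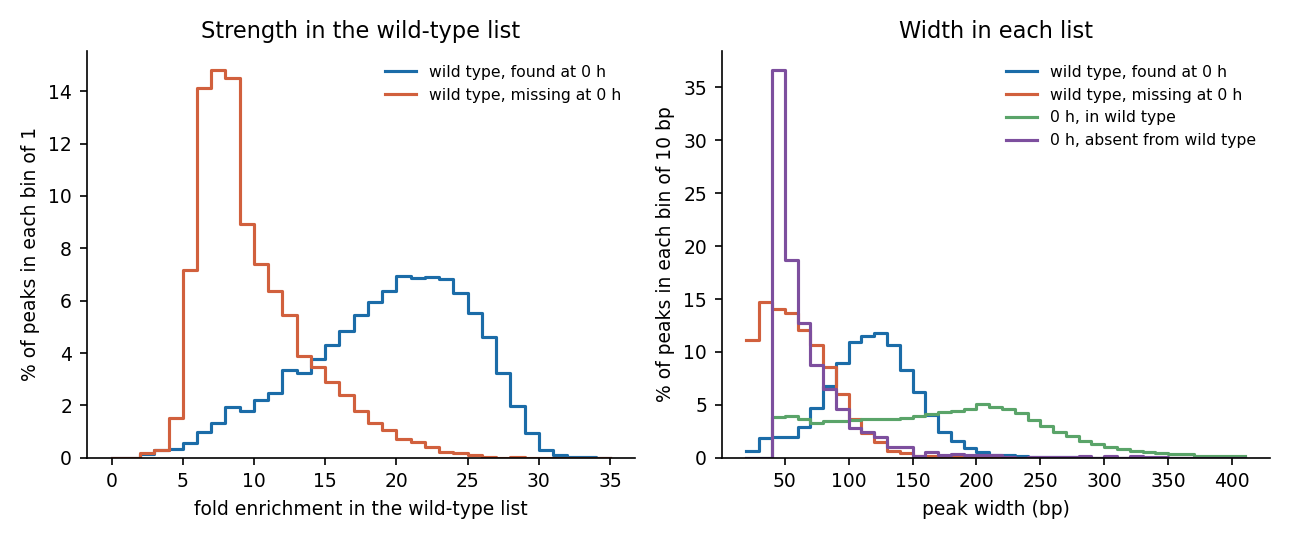
Left, distribution of fold enrichment in the wild-type list (horizontal axis) for peaks found (blue) and missing (orange) at 0 h, as % of peaks in each bin of 1. Right, peak width in bp for the same classes and for 0 h peaks found in (green) or absent from (purple) wild type, as % of peaks in each bin of 10 bp. Missing peaks gather near the median of 8.92 and found peaks near 20.1, and 0 h-only and missing wild-type peaks both have a median width of 57 bp, with quartiles of 46 and 77 bp and of 39 and 78 bp in lists whose shortest peaks are 44 and 27 bp.

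Summits of shared sites lay close together, which the rule sets in part. Shared peaks overlap by the rule, with median widths of 117 bp in wild type and 175 bp at 0 h, and this limits the distance. The distance between the wild-type and the 0 h summit had a median of 11 bp (quartiles 5 and 20), and 98.1% (97.9 to 98.2) of summit pairs lay within 50 bp. The signed distance had a median of 0 bp with quartiles of -11 and 11 bp, so that neither direction along the chromosome prevailed. Median distances were 10 to 12 bp in all 10 groups of wild-type strength. Summits over 100 bp apart made up 0.661% of pairs. The 2 largest distances, 853 and 743 bp, were at chr1:544733-545291 and chr5:10758-10856, where single 0 h peaks of 1393 and 1545 bp covered the wild-type peak. From missing sites, which by the rule overlapped no 0 h peak, the nearest 0 h summit was a median 28112 bp away (quartiles 10156 and 68752).

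Spacing of sites differed between the classes. Of found wild-type peaks, 9.33% (9.0 to 9.67) had another wild-type CTCF summit within 1 kb, against 6.93% (6.61 to 7.26) of missing ones, and the median distance to the nearest summit of the same list was 11517 and 14395 bp. Peaks with such a neighbour were weaker (median fold enrichment 10.7 against 14.9) and yet were found more often, in 62.3% of cases (60.9 to 63.8) against 54.5% (54.1 to 54.9). Within groups ranked by −log10 q, a ranking chosen after the data were seen, 24.0% (20.4 to 27.7) of group 1 peaks with a neighbour were found and 3.94% (3.40 to 4.53) of the others. Ranked by fold enrichment, which puts high-background peaks into group 1, these shares were 44.5% (41.1 to 47.8) and 4.68% (4.08 to 5.34). In group 5 they were 74.0% and 45.9% by −log10 q and 71.4% and 45.7% by fold enrichment, and in group 10 they were 99.6% and 99.4% by −log10 q. Peaks with a neighbour lay on the higher median background in every group by both rankings. In group 5 by fold enrichment it was 0.697 against 0.335 reads, and the part of background in these shares was not tested.

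Neighbouring pairs were then followed together. Of 2476 adjacent wild-type summits within 1 kb of each other, both were found in 44.7% of cases, 1 of them in 37.5% and none in 17.8%. Where 1 was found, the missing peak was the weaker in 87.1% of 928 pairs (84.7 to 89.2). In 191 pairs, 7.71%, a single 0 h peak overlapped both. Joining of this kind was uncommon over the whole list, as 178 of the 0 h peaks overlapped 2 or more wild-type peaks and 28866 overlapped 1.

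Cohesin was more frequent at found than at missing sites. Over all wild-type CTCF peaks, 76.4% overlapped a wild-type RAD21 peak: 97.1% (96.9 to 97.2) of the found and 51.0% (50.4 to 51.6) of the missing ones, a difference of 46.1 percentage points (Newcombe interval 45.4 to 46.7). With both lists at the common length of 30374 peaks, the share at missing peaks was 81.9% and that at found peaks 98.9%. Within the strength groups, sites with RAD21 were found more often in groups 1 to 9. In group 3 the shares found were 26.8% (25.1 to 28.5) with RAD21 and 4.79% (4.00 to 5.69) without. In group 6 they were 70.7% (69.4 to 71.9) and 21.9% (18.0 to 26.2). In group 10 the 5 sites without RAD21 were too few to compare.

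ZNF143 was likewise more frequent at found sites. Wild-type ZNF143 peaks lay at 50.6% of all wild-type CTCF peaks, at 82.1% (81.7 to 82.5) of the found and at 11.9% (11.5 to 12.3) of the missing ones, a difference of 70.2 points (69.6 to 70.8). The share at missing peaks was 25.6% with a reciprocal overlap of 50% and 35.8% at a common list length. In group 3 the share found was 59.7% (55.0 to 64.3) with ZNF143 at the site and 12.1% (11.2 to 13.0) with no ZNF143 peak. In group 6 the shares were 81.7% (80.3 to 83.0) and 45.6% (43.5 to 47.8), a gap of 36.0 points (33.5 to 38.5) where that of RAD21 was 48.7 points (44.3 to 52.7). In group 9 the shares were 97.3% (96.9 to 97.8) and 73.6% (65.2 to 81.0).

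Sites were then split by both partners. Sites with both RAD21 and ZNF143 were found in 90.9% of 26072 cases, those with RAD21 and no ZNF143 in 32.4% of 14403, those with ZNF143 and no RAD21 in 39.7% of 743, and those with neither in 4.81% of 11764. Median fold enrichments of these classes were 20.9, 10.8, 11.1 and 7.87, so they differed in strength as well. Within group 5 the order at the ends stayed. There 74.9% (72.8 to 76.9) of sites with both were found and 41.6% (39.7 to 43.5) with RAD21 alone. The shares were 37.0% (27.9 to 46.9) with ZNF143 alone and 11.6% (9.44 to 14.0) with neither. In groups 1 to 4 the share with ZNF143 alone was above that with RAD21 alone. In group 3 it was 33.3% (23.9 to 43.9) of 93 sites against 20.9% (19.3 to 22.6). Peaks with both partners were also wider in group 5, with a median of 94 bp against 70 bp for those with neither. Their median fold enrichment was 13.4 against 12.8. The part of width and of this remaining difference in strength in these shares was not tested.

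**Figure D3:**
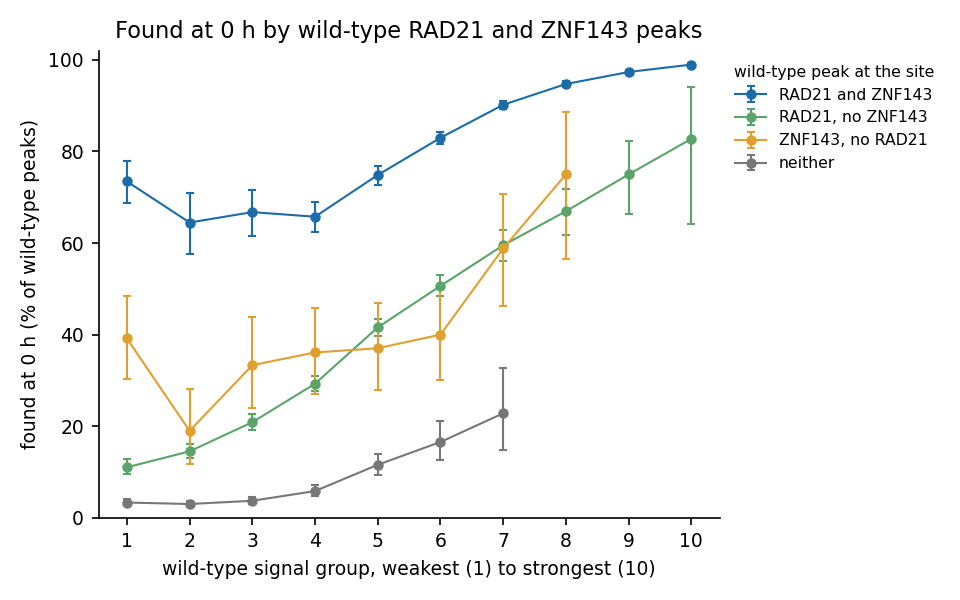
Share of wild-type CTCF peaks found at 0 h (vertical axis, %) in each group of wild-type fold enrichment (horizontal axis, weakest to strongest), split by wild-type RAD21 and ZNF143 peaks at the site. Bars are exact 95% intervals, and points of under 20 peaks are left out. Sites with both partners lie highest in every group, and sites with neither lowest in groups 1 to 7, where they are plotted, for example 74.9% and 11.6% in group 5.

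Most missing sites were seen again in the knockout line with the same antibody. A ZNF143KO CTCF peak lay at 94.0% of all wild-type CTCF peaks. The shares were 99.3% (99.2 to 99.4) of those found at 0 h and 87.4% (87.0 to 87.8) of those missing. The knockout list was not cut to the length of the 0 h list, so the 94.0% is not on a par with the 55.1% found at 0 h. For knockout RAD21 the shares were 83.4% over all, 98.1% of found and 65.2% (64.6 to 65.8) of missing peaks. In groups 7 to 10 every wild-type peak, found or missing at 0 h, had a knockout CTCF peak. The missing ones numbered 870 in group 7 and 59 in group 10. Of the missing sites, 47.1% had peaks in the wild-type RAD21, knockout CTCF and knockout RAD21 lists together (median wild-type fold enrichment 10.9), 21.1% had a knockout CTCF peak and no peak in the other 6 lists (median 7.98), and 9.27% (8.91 to 9.65) had no peak in any of the other 7 lists (median 6.76).

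Few missing sites had a peak in the other CTCF-AID lists, which map ZNF143 or, after 24 h of IAA, CTCF. These shares are not on a par with that of knockout CTCF. Wild-type ZNF143 itself lay at 11.9% of missing sites. Of 13552 wild-type CTCF peaks that met a 24 h CTCF peak, 13472 were found at 0 h. ZNF143 peaks of CTCF-AID at 0 h lay at 37.3% of all wild-type CTCF peaks, at 65.3% (64.8 to 65.9) of the found and at 2.82% (2.61 to 3.04) of the missing ones. CTCF peaks at 24 h lay at 25.6% of all, at 46.1% of the found and at 0.337% (0.267 to 0.419) of the missing ones, which are 80 peaks. ZNF143 peaks at 24 h lay at 12.2% of all, 20.7% of the found and 1.84% of the missing ones. Together, 754 missing sites or 3.17% (2.95 to 3.40) had a peak in any of these 3 lists.

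**Figure D4:**
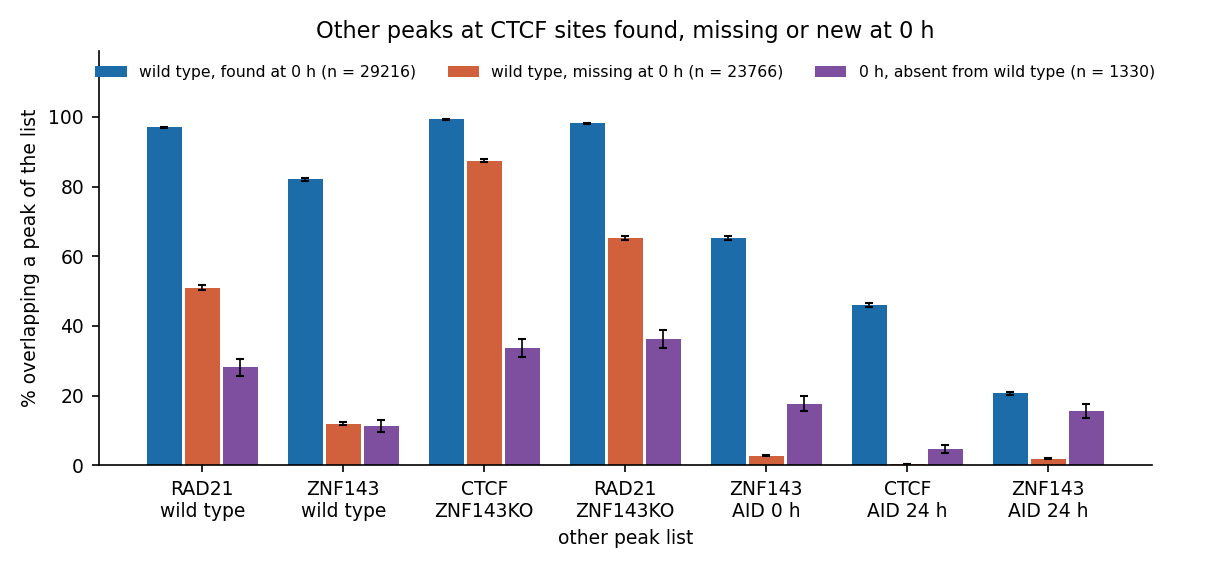
Share of CTCF peaks (vertical axis, %) that overlapped a peak of each other list by at least 1 bp (horizontal axis), for wild-type peaks found (blue) and missing (orange) at 0 h and for 0 h peaks absent from wild type (purple). Error bars are exact 95% intervals. Missing peaks reach 87.4% in the knockout CTCF list and at most 2.82% in the 3 CTCF-AID lists. Those 3 lists map ZNF143 or, after 24 h of IAA, CTCF, so the shares are not on a par.

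ZNF143 at 0 h was then examined at sites where wild type had both proteins. Of the 26815 wild-type CTCF peaks with a wild-type ZNF143 peak, those found at 0 h had a ZNF143 peak at 0 h in 75.9% of cases (75.4 to 76.5) and those missing in 14.4% (13.1 to 15.7). For comparison, wild-type ZNF143 peaks with no wild-type CTCF were found in the 0 h ZNF143 list in 83.5% of 9883 cases. In group 10 of CTCF strength, ZNF143 was present at 0 h at 94.3% (93.6 to 94.9) of sites where CTCF was found and at 5 of 54 sites where it was missing, 9.26% (3.08 to 20.3). In group 7 the shares were 65.8% and 3.36%. In group 1 they were closer, at 96.6% (94.0 to 98.3) and 72.1% (64.8 to 78.7). Over all CTCF peaks of group 1, the median background was 4.09 reads at found and 0.265 at missing peaks. The part of background in these shares was not tested. In group 2 the shares were 78.3% (71.1 to 84.5) and 55.4% of 157 missing sites (47.3 to 63.3). These sites with wild-type ZNF143 were a small part of the weak missing sites, 172 of 4703 in group 1.

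**Figure D5:**
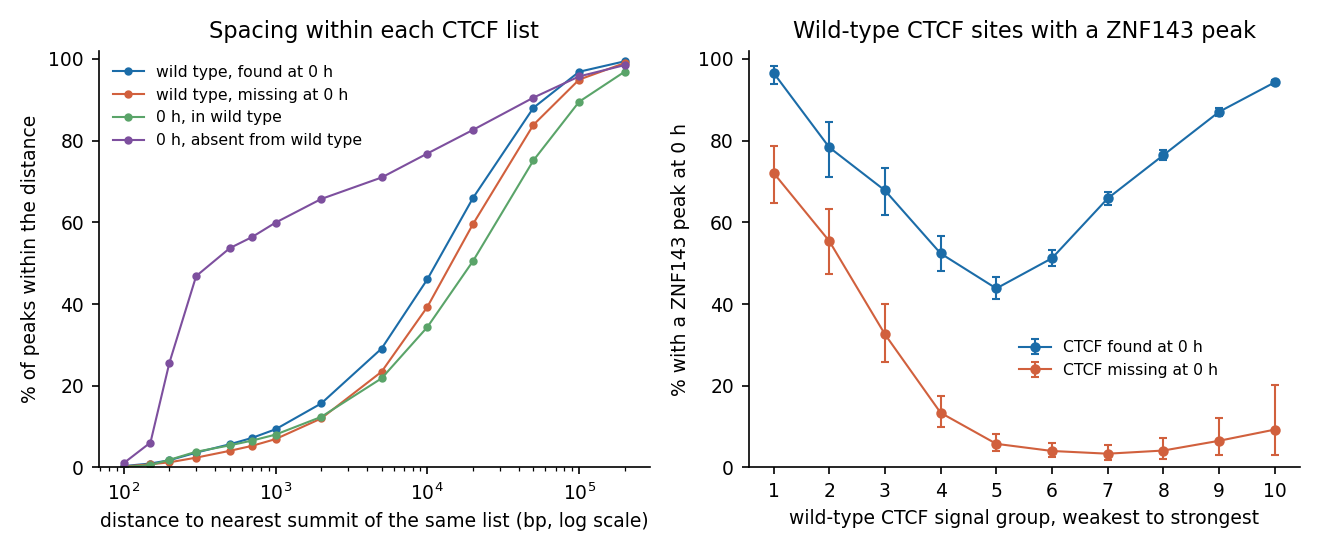
Left, share of peaks (vertical axis, %) with another summit of the same list within the distance on the horizontal axis (bp, log scale), for the 4 classes of CTCF peaks. Right, share of wild-type CTCF sites with a wild-type ZNF143 peak that had a ZNF143 peak at 0 h (vertical axis, %), by wild-type CTCF strength group (horizontal axis), for sites where CTCF was found (blue) or missing (orange); bars are exact 95% intervals. At 1 kb the curve of 0 h-only peaks stands at 59.9% and the others at 6.93% to 9.33%, and in group 10 of the right panel the shares are 94.3% and 9.26%.

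The 1330 CTCF peaks of 0 h that were absent from wild type were weak, narrow and close to other peaks. Their median fold enrichment was 6.22 (quartiles 5.28 and 7.64) in a list whose shared peaks had 16.5, and their median width was 57 bp against 174 bp. The weakest of 10 groups of the 0 h list held 860 of them, and each of the 5 strongest groups held at most 2. Another 0 h CTCF summit lay within 1 kb of 59.9% (57.2 to 62.6) of them, against 8.03% (7.72 to 8.35) of shared 0 h peaks. For 54.8% (52.1 to 57.5) a 0 h peak shared with wild type was within 1 kb, and 60.2% (57.5 to 62.8) had a wild-type CTCF summit within that distance. Most of these peaks were thus near another CTCF peak. They lay on a median background of 1.39 reads against 1.08 at shared peaks.

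Peaks of 0 h alone fell into unlike sets by their surroundings. The 797 with a neighbour within 1 kb had a median background of 1.62 reads, and 18.3% (15.7 to 21.2) overlapped a knockout CTCF peak. The 533 without one had a median background of 0.726 reads, and 56.5% (52.1 to 60.7) overlapped a knockout CTCF peak and 51.4% (47.1 to 55.7) a wild-type RAD21 peak. Over all 0 h CTCF peaks, 96.5% overlapped knockout CTCF, 94.1% wild-type RAD21, 95.5% knockout RAD21, 79.1% wild-type ZNF143, 63.3% ZNF143 at 0 h, 44.4% CTCF at 24 h and 20.4% ZNF143 at 24 h. For 0 h-only peaks these shares were 33.6%, 28.1%, 36.2%, 11.3%, 17.7%, 4.59% and 15.5%, and 44.9% had no peak in any of the 7 lists.

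The strongest 0 h-only peaks were of middle rank in their own list. The first, at chr10:133795504-133795668, had a fold enrichment of 16.3, higher than 51.4% of the 0 h list, and of the other 7 lists it had a peak in CTCF at 24 h, of 7.22. The second, at chr9:9442101-9442287, had 16.2 and no peak in any other list, with the nearest wild-type CTCF summit 54226 bp away. At chr22:21894784-21894888 the value was 15.1, and here wild-type RAD21 (13.7), knockout CTCF (12.5) and knockout RAD21 (18.4) had peaks where the wild-type CTCF list had none.

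Chromosomes differed modestly. The share of wild-type CTCF peaks found at 0 h was lowest on chromosome 13, at 48.4% (45.7 to 51.2), and highest on chromosome 19, at 61.1% (58.9 to 63.3), with median wild-type fold enrichments of 13.7 and 15.9. In 503 windows of 5 Mb with at least 50 wild-type peaks, the share had quartiles of 50.5% and 60.1%. It was lowest at 31.3% of 67 peaks in chr9:80000001-85000000 and highest at 76.4% of 72 peaks in chr11:50000001-55000000, where the median fold enrichment was 11 and 8.11.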

How the data were processed

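ChIP-nexus peak lists of 9 libraries were analysed. Per the submitters' processing notes, cutadapt 2.10, Bowtie2 2.3.5.1, SAMtools 1.12, MACS2 2.2.7.1 and deepTools were used, with builds GRCh37 and hg19. Settings, filters and any pooling are not given in the sources used here. The authors deposited, per peak, a fold enrichment (a ratio), −log10 p and q values, a summit and a score that follows −log10 q. All fold enrichments are the authors'. They were ranked within a list.

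Overlaps, shares and medians were computed with pandas 2.3.3, numpy 2.4.6 and scipy 1.17.1, intervals also with statsmodels 0.14.6, and plots with matplotlib 3.10.9, under Python 3.11.15. Summit counts and background were solved from ratio and −log10 p under a Poisson model with 1 added to count and background. Whole-number counts matched 100% of peaks in both lists within 0.002. Background per kb is the most frequent background over the shortest peak length, taken as a read's footprint. Overlap calls were checked by comparing every pair of peaks on chromosome 21, with 0 disagreements over 648 wild-type peaks.

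Named peaks, none on chromosome 8, are the 3 of highest signal in each class and the 2 largest summit distances. Sites and classes were chosen with earlier results of these data known. Gene names and motifs were not analysed here, as no hg19 sequence or annotation was used.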

Additional observations from a re-analysis of the deposited data

Results flagged for a closer look

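Both CTCF lists held peaks on sequences other than chromosomes 1 to 22 and X, which entered no comparison. There were 601 such peaks in the wild-type list, 1.122% of its 53583 peaks, and 522 in the 0 h list, 1.69% of its 30896 peaks. They are given because no comparison used them, and there were no control samples to set them against.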

How the results depend on the processing

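No paired analysis was possible because each group held 1 library. The values at a common list length, with other overlap rules and in the stronger 50% were planned; those without peaks that have a neighbour within 1 kb, without the 20 fullest windows and with groups by −log10 q were chosen after the data were seen. The motif shares and gene lists were not run, as no genome or annotation of the build was used. Of 66 alternative values of 23 results, 18 lay inside the main 95% interval and 48 outside; the cause was not tested. Found and missing classes are redefined in each setting, and the list lengths limit what can be compared.

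The share of wild-type peaks found at 0 h was 43.8% with a reciprocal overlap of 50%, 54.0% with summits within 50 bp, 55.8% with −log10 q from 5 up, 82.9% at equal list length, 55.8% in the stronger 50% and 54.5% without neighbours. The share of 0 h peaks found in wild type was, in this order, 76.4%, 94.3%, 95.9%, 82.7%, 97.1% and 98.0%. The stronger 50% kept lists of unequal length, 26491 wild-type and 15187 0 h peaks, so the bound by list length stays there.

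Wild-type RAD21 at missing peaks came to 60.2% (reciprocal), 51.9% (summits), 52.4% (−log10 q), 81.9% (common length) and 51.9% (without neighbours), and ZNF143 at missing peaks to 25.6%, 13.0%, 12.5% and 35.8% in the first 4 settings. At found peaks, RAD21 came to 97.3% (summits), 98.9% (common length) and 97.9% (without neighbours), and ZNF143 to 82.7% (reciprocal), 82.6% (summits), 89.0% (common length) and 82.8% (without neighbours).

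The median fold enrichment of missing peaks was 9.74 (reciprocal), 8.94 (−log10 q) and 15.3 (common length), and their median width 64, 58 and 88 bp. Found peaks had a median fold enrichment of 20.2 (summits) and 21.1 (common length) and a median width of 120 (reciprocal) and 123 bp (common length). The width ratio at shared sites was 1.48 at a common length. With neighbours counted within 500 bp or 5 kb, the shares were 5.67% and 29.1% for found and 4.07% and 23.4% for missing peaks. Ranked by −log10 q, 6.02% of group 1 and 99.4% of group 10 were found.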

Other observations

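The 0 h CTCF peaks absent from wild type were unevenly placed. The 20 fullest of the 1 Mb windows that held any contained 16.2% (14.2 to 18.3) of these 1330 peaks, against 3.25% (3.05 to 3.46) of 0 h peaks shared with wild type. Lists of different length can differ in this share by their length, and no comparison at equal length was made. The fullest window, chr7:61000001-62000000, held 31 of them among 101 CTCF peaks of 0 h, with 103 wild-type CTCF peaks. The next, chr4:49000001-50000000, held 17 of 74, and there the 0 h-only peaks had a median background of 14.8 reads at the summit, against 1.39 over all 0 h-only peaks.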
